A study of Mus musculus with 6 samples.

Results

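Chemokine receptors guide leukocytes along gradients of secreted chemokines, and 8 of them were followed in M2 macrophages (Mφs): Ccr1, Ccr2, Ccr3, Ccr7, Cx3cr1, Cxcr4, Ccrl2 and Ackr3. They were chosen by gene symbol out of the 41549 genes listed, and 6 of the 8 passed the low-count filter that left 11933 genes for testing. The transcript of Ccr2, the receptor that brings inflammatory monocytes into tissue, was lower in each of the 3 libraries with 5′tRF-Glu(CTC) blocked than in any control. Ccrl2 was higher in each of them, and Cxcr4 and Ccr1 were at 1.95 to 2.37 times the control mean in 2 of the 3. Under the edgeR test on all 6 libraries none of these differences was called, and how far each depends on a single library is given beside it.

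Both groups were bone marrow-derived Mφs of wild-type mice of the strain C57Bl/6 N, aged 10 to 12 weeks. Marrow cells were cultured for 7 days with M-CSF (10 ng/ml), the growth factor that turns their precursors into Mφs, and were polarized for 48 h with IL-4 and IL-13 (10 ng/ml), which induce the anti-inflammatory M2 state. Before polarization the αGlu group received 50 pmol of a locked nucleic acid inhibitor of 5′tRF-Glu(CTC), and the Ctr group received a control inhibitor. The fragment is the 5′ part of a glutamate tRNA, cut in or next to the anticodon loop. There were 3 libraries in each group, and the question was how the fragment shapes the M2 transcriptome. By the study's methods, each replicate of primary cells was a preparation from another animal, and p-values measure the spread between these libraries. Whether a Ctr and an αGlu library of the same number came from the same animal is not stated. The mRNA libraries do not measure the fragment, so its blockade is not checked here.

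The inhibitor is shown because it is the agent by which the groups differed. In the target, capitals mark bases 2 to 21, with which the 20 bases of the inhibitor pair.
inhibitor: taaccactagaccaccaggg
target: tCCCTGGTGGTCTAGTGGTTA
In the annotated transcripts of the 8 receptors the longest run of bases complementary to the inhibitor was 7 to 11 bases. For Ccr2 it was 8 bases, and 56.9% of the 11760 genes compared hold a run at least as long. The 11-base run belonged to Cx3cr1, a length reached by 0.986% of genes. These runs are descriptions of the letters and were not tested as binding sites.

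Chemokine receptors are G protein-coupled receptors that activate inhibitory G proteins, which turn on phosphoinositide 3-kinase and Rac and so reorganize actin for movement. Arrestins and receptor kinases switch the signal off, and atypical receptors bind ligands without this signalling and thereby shape the gradient. In the myeloid lineage, Ccr2 is high in classical monocytes and is lowered as they mature into Mφs, whereas Cx3cr1 is typical of patrolling monocytes and many resident Mφs.

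Total counts ranged from 17912831 to 30386653 per library, and 3 counts, taken as the floor of detection, correspond to 0.0987 to 0.167 counts per 1000000 of the library total. In what follows, CPM are counts per 1000000 of the library size adjusted by TMM, a scaling that evens out differences in composition. αGlu 1 stood apart from the other αGlu libraries. Across genes, which are not independent replicates, its log2 CPM correlated at a Pearson r of 0.929 with those of αGlu 2 and αGlu 3, and at 0.966 to 0.982 with those of the Ctr libraries, while αGlu 2 and αGlu 3 correlated with each other at 0.992. Fold changes of the members are therefore given with and without αGlu 1. Because αGlu 1 was set apart by these same data, adjusted p-values without it describe the remaining libraries and are not independent support. All 8 Mφ markers exceeded 1 CPM, among them Csf1r, the M-CSF receptor, and 8 markers of the IL-4 and IL-13 response all exceeded 1 CPM in a group. Most of their summed level was Chil3 and Mrc1, and they did not move together, since Retnla and Mgl2 were lower in every αGlu library than in any Ctr library, and Arg1 was at 24.3 to 45.2 CPM in Ctr, against 23.5, 1886 and 1792 CPM in αGlu 1, 2 and 3. In bulk RNA, fewer cells of one type and less RNA per cell cannot be told apart.

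The levels of the receptors differed widely in control M2 Mφs. Levels of different genes were compared only as transcripts per 1000000 (TPM), which account for transcript length. Cxcr4 was the highest, with 168, 201 and 180.2 TPM in Ctr 1, 2 and 3. Ccr1 followed at a mean of 61.8 TPM, then Ccrl2 at 17.1, Ccr3 at 10.4 and Ccr2 at 5.83 TPM. Ccr7 was near the floor at 0.414 TPM, and Cx3cr1 and Ackr3 were at 0.0390 and 0.0139 TPM. Library ranges of neighbours in this order did not overlap for 6 of the 7 pairs, and only Cx3cr1 and Ackr3 were not separated. For Ccr7 and Cx3cr1 this rests on 3, 3 and 12 reads against 1, 2 and 1 in Ctr, with the floor at 3 counts. Their order is therefore not secure. In the αGlu group the order of the first 4 receptors was the same, but Ccr2, with a mean of 0.570 TPM, stood beside Ccr7 at 0.632 TPM, and the ranges of this pair overlapped.

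**Figure D1:**
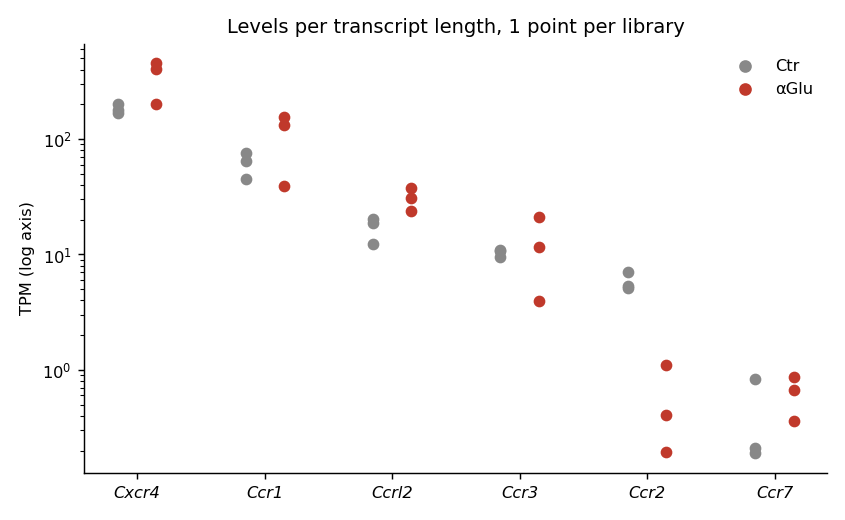
TPM on a log axis for the 6 receptors that passed the low-count filter, with 1 point per library (grey, Ctr; red, αGlu). Ccr2 is the receptor whose αGlu points (0.194 to 1.11 TPM) lie below all its Ctr points (5.11 to 7.06 TPM).

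Counted over the members, 0 of the 6 tested receptors were called by edgeR's quasi-likelihood test, for which a call needed an adjusted p under 0.1 together with a log2 fold change beyond 1 in either direction. The background was 0% of all genes tested. At an unadjusted p under 0.05 there were 3 of 6 (Cxcr4 and Ccrl2 higher, Ccr2 lower) against 24.7% of all genes. The groups did not overlap for 2 of 6, Ccr2 and Ccrl2, against 30.2% of all genes. DESeq2 called 1 of the members, Ccr2, against 8.16% of the genes it tested. Limma-voom called 0, with 3 at an unadjusted p under 0.05 against 26% of all genes. Without αGlu 1, edgeR called 3 members, Ccr1 and Cxcr4 as higher and Ccr2 as lower, against 18.6% of all genes. The median log2 fold change of the 6 members was 0.64, compared with 0.02 for all genes tested.

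**Figure D2:**
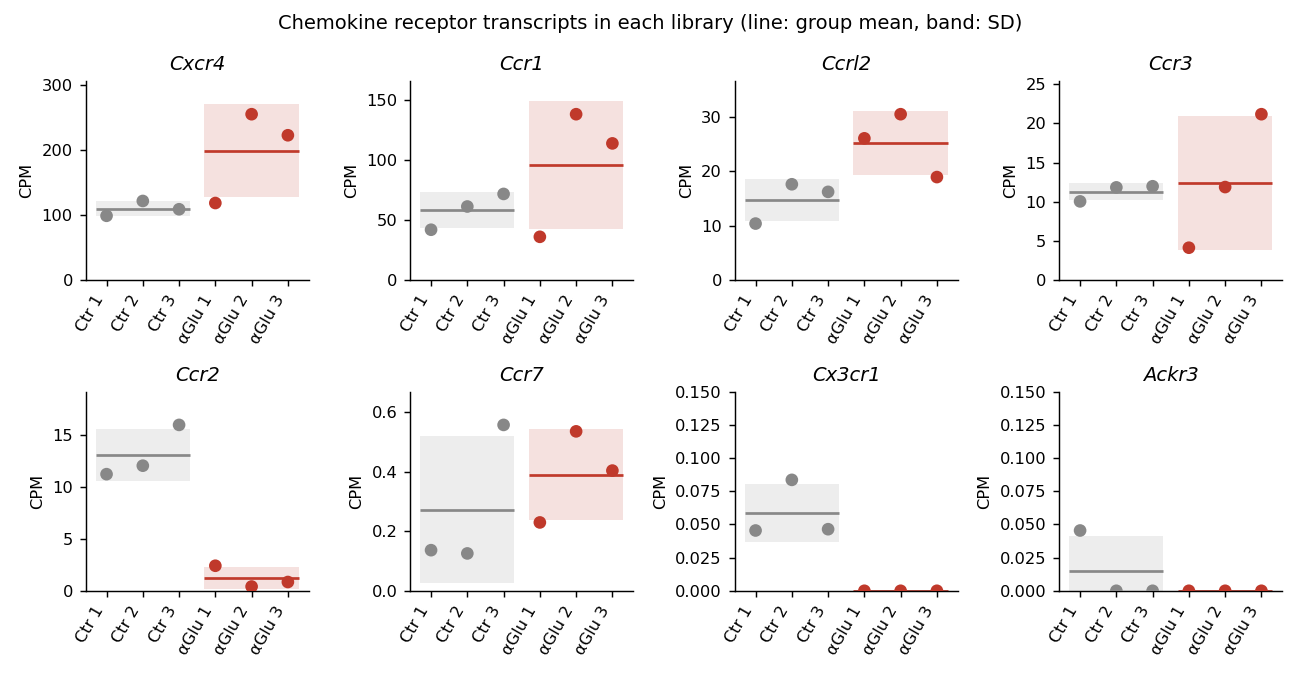
CPM of each of the 8 receptors in each library (points), with the group mean (line) and SD (band), each panel on its own linear axis from 0. αGlu 1 lies within or below the Ctr range for Cxcr4 and Ccr1, whereas all 3 αGlu points lie below Ctr for Ccr2 and above Ctr for Ccrl2.

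**Figure D3:**
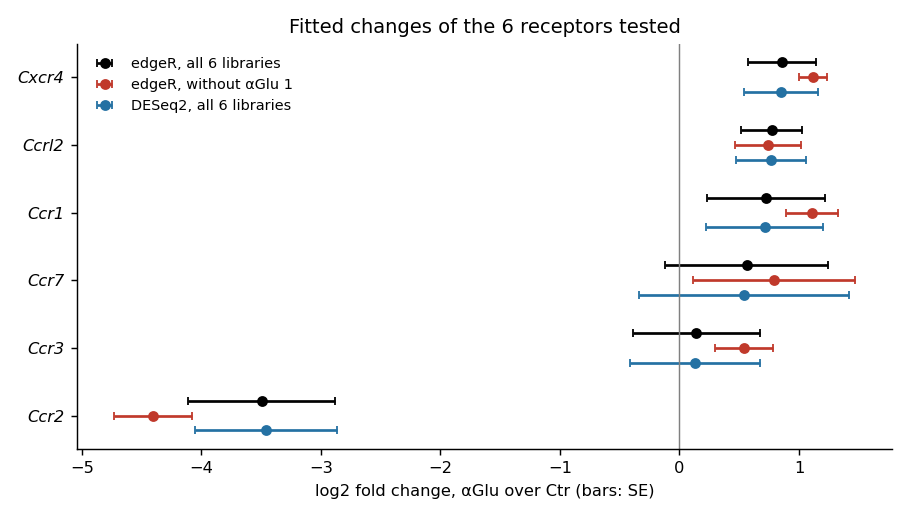
Fitted log2 fold changes (αGlu over Ctr) with standard errors for the 6 receptors tested, under edgeR with all libraries (black), edgeR without αGlu 1 (red) and DESeq2 (blue). Ccr2 lies between -4.40 and -3.46 in all 3 fits, and leaving out αGlu 1 moves Cxcr4 and Ccr1 to 1.12 and 1.11.

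Among the receptors for inflammatory CC chemokines, Ccr2 had the largest fitted fold change of the 6 tested members. Its values were 11.2, 12.04 and 15.96 CPM in Ctr 1, 2 and 3, and 2.41, 0.409 and 0.844 CPM in αGlu 1, 2 and 3. The αGlu values rested on 42, 13 and 23 reads, above the minimum count of 10. Every αGlu library was below every Ctr library, and the closest pair of libraries differed 4.66-fold. Relative to the Ctr mean, Ccr2 was 5.43-fold lower in αGlu 1, 31.9-fold lower in αGlu 2 and 15.5-fold lower in αGlu 3. The fitted log2 fold change was -3.50 ± 0.61 (SE), with an edgeR adjusted p of 0.149. This was the smallest adjusted p of any gene in that fit, but other genes shared it. The unadjusted edgeR p of Ccr2 was 0.00126, and that of Ccl5, with the same adjusted p, was 0.000202. DESeq2 gave -3.46 with an adjusted p of 2.49e-06, and limma-voom an adjusted p of 0.127. Without αGlu 1 the edgeR log2 fold change was -4.40 ± 0.33 with an adjusted p of 0.000211. Over all 14 alternatives the value lay between -4.40 and -3.04 and the adjusted p between 2.49e-06 and 0.427.

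Ccr1, a receptor for Ccl3, Ccl5 and several other inflammatory chemokines, did not follow Ccr2. It was at 41.8, 61.1 and 71.6 CPM in Ctr 1, 2 and 3, and at 35.96, 137.8 and 113.6 CPM in αGlu 1, 2 and 3. αGlu 1 was thus below all controls, while αGlu 2 and αGlu 3 were above all of them. The log2 fold change was 0.72 ± 0.49 (adjusted p = 0.373) with all libraries and 1.11 ± 0.22 (adjusted p = 0.00907) without αGlu 1, both by edgeR.

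Ccr3, the eotaxin receptor typical of eosinophils, was at 10.04, 11.8 and 11.97 CPM in the Ctr libraries and at 4.13, 11.9 and 21.2 CPM in αGlu 1, 2 and 3. The αGlu libraries thus lay below, within and above the narrow Ctr range. Its log2 fold change was 0.14 ± 0.53 (adjusted p = 0.874), and 0.54 without αGlu 1 (adjusted p = 0.123). The direction turned to -0.48 when αGlu 3 was left out.

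Ccr1, Ccr3 and Ccr2 lie in one cluster on chromosome 9, and the 3 genes span 147 kb. By the RefSeq annotation of GRCm38.p6, Ccr1 is at chr9:123962126-123968692, Ccr3 at chr9:124017825-124031692 and Ccr2 at chr9:124101918-124109140. Within 500 kb on each side of Ccr2, 13 protein-coding genes were examined, and 8 of them were tested. Of these 8, only Ccr2 was lower in αGlu without overlap. Lztfl1 and 2010315B03Rik were higher without overlap, with log2 fold changes of 0.61 and 0.52. Over all genes tested, 30.2% did not overlap in either direction, and Ccr2 was already known to be among them.

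**Figure D4:**
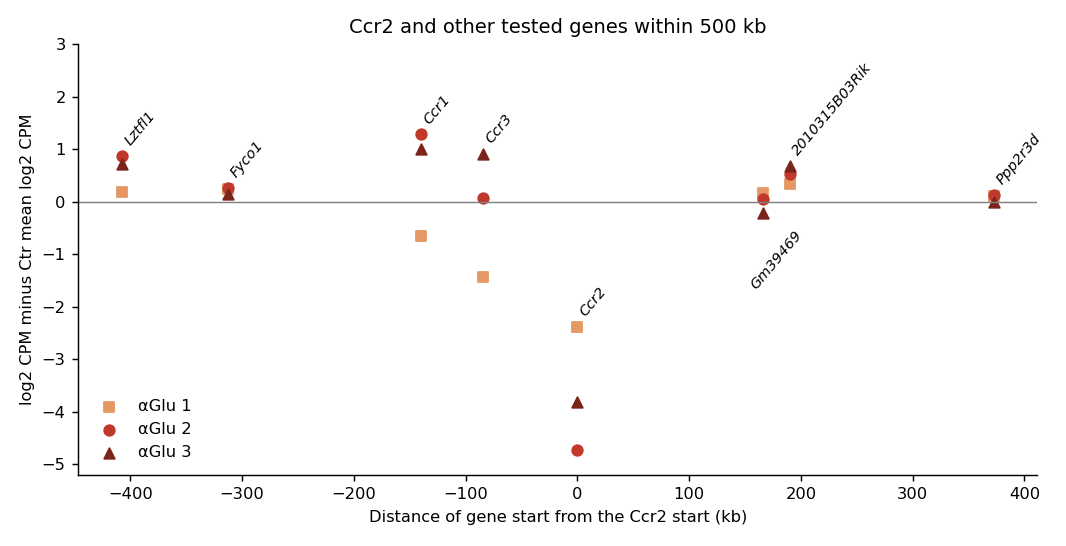
Difference in log2 CPM between each αGlu library and the Ctr mean (vertical axis) for 8 tested protein-coding genes within 500 kb of Ccr2, itself included, against the distance of each gene's start from that of Ccr2 in kb. Ccr2 lies at -2.38, -4.72 and -3.81, while αGlu 2 and αGlu 3 lie above 0 for Ccr1 and Ccr3.

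The log2 ratio of Ccr2 to its neighbours was compared within libraries, since it does not depend on how the libraries are scaled. The ratio of Ccr2 to Ccr1 (TPM) was -3.15, -3.60 and -3.42 in Ctr and -5.15, -9.65 and -8.33 in αGlu. The mean ratio was lower in αGlu, with a difference of -4.32 on the log2 scale. The corresponding differences were -3.63 for Ccr2 to Ccr3 and 0.69 for Ccr1 to Ccr3. In both ratios of Ccr2 every αGlu library was below every Ctr library, which in a two-sided exact permutation test gives p = 0.1, the smallest that 3 against 3 allows (0.15 after adjustment over the 3 ratios compared). Both ratios use the Ccr2 values already given, which did not overlap, so they are not independent support. For Ccr1 to Ccr3 the exact p was 0.2. Of the 50-base runs in Ccr2 transcripts, 1.91% also occur in transcripts of other genes, so reads from these stretches could be split between the genes by the authors' counting.

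The promoter windows of the 3 neighbouring receptors and of Ccrl2 are shown, because Ccr2 and Ccrl2 were the members without overlap and Ccr1 and Ccr3 belong to the cluster of Ccr2. Each is 300 bases around an annotated start site, from RefSeq on GRCm38.p6, read along the gene's strand. Capitals mark matches, on either strand, to GAGGAA (an Ets core of the kind bound by PU.1), TTCNNNNGAA (a STAT palindrome), GGANTTTCC (a κB core) or TGACGT (a cAMP response element core). These motifs were chosen after the sequences had been seen.
Ccr2, chr9:124101933-124102232, plus strand: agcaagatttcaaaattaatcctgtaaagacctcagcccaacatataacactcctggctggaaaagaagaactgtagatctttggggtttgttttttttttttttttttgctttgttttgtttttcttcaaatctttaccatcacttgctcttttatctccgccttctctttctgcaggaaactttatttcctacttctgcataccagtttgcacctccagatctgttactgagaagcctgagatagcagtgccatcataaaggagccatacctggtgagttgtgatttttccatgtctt
Ccr1, chr9:123968643-123968942, minus strand: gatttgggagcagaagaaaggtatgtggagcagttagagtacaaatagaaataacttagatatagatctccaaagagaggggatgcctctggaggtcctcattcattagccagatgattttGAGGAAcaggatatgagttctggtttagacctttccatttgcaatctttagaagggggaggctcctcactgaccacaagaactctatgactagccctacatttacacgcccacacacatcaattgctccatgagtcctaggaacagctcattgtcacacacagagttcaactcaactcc
Ccr3, chr9:124021721-124022020, plus strand: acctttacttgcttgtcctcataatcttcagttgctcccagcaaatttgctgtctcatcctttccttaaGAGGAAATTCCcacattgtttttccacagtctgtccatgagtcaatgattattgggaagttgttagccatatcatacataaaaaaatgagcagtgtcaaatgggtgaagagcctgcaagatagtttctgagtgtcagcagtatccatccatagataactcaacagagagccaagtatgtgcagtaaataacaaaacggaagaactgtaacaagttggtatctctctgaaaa
Ccrl2, chr9:111057469-111057768, minus strand: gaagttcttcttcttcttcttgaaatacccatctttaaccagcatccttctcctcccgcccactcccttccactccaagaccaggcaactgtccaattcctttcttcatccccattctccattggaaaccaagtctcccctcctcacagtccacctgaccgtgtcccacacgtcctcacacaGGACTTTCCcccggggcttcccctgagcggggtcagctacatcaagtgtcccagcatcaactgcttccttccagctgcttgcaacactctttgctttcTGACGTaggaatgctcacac
The Ccr2 window held none of the 4 motifs, which says only that these letters are not in this window. By the coordinates given, the windows of Ccr2 and Ccr3 lie inside the annotated spans of these genes, so the sequence upstream of the spans is not shown. Ccr1 held GAGGAA at position -129 from the start site. In Ccr3, GAGGAA at position -181 overlapped a κB core on the opposite strand at position -179. The Ccrl2 window shown held a κB core at position -68 and TGACGT at position 30. It belongs to 1 of 3 annotated start sites of Ccrl2, and the windows of the other 2 held TGACGT but no κB core. Among 32851 promoter windows of the same length, 28.3% held GAGGAA, 6.95% the STAT palindrome, 1.25% the κB core and 7.51% TGACGT. The windows of Cxcr4, Cx3cr1 and Ackr3 held none of the 4.

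Among the homing receptors, Cxcr4, the receptor for Cxcl12 that retains leukocytes in the marrow, was the most abundant member. It was at 98.9, 122 and 109 CPM in Ctr 1, 2 and 3, and at 119, 255 and 223 CPM in αGlu 1, 2 and 3. αGlu 1 fell within the Ctr range, and the other αGlu libraries were at 2.32 and 2.03 times the Ctr mean. On the TPM scale αGlu 1 (203 TPM) was just above the highest Ctr value (201 TPM), so there the groups did not overlap. The log2 fold change was 0.86 ± 0.29 (edgeR adjusted p = 0.169), and 1.12 ± 0.12 (adjusted p = 0.000737) without αGlu 1. The gene lies at chr1:128588199-128592299 and shared no 50-base run with transcripts of other genes.

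Ccr7, which draws dendritic cells to lymph nodes along Ccl19 and Ccl21 and is often used as a marker of pro-inflammatory M1 Mφs, was close to the limit of detection. Its reads were 3, 3 and 12 in Ctr and 4, 17 and 11 in αGlu. The values overlapped, and the log2 fold change of 0.56 ± 0.68 (adjusted p = 0.610) was within its error. Without αGlu 1 it was 0.79 ± 0.68 (adjusted p = 0.390). At this depth no difference was detectable. The gene lies at chr11:99144199-99155077.

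Cx3cr1, the receptor for fractalkine (Cx3cl1), had 1, 2 and 1 reads in Ctr and 0 in each αGlu library. Ackr3, an atypical receptor that takes up Cxcl12 and Cxcl11, had 1 read in Ctr 1 and 0 in the other 5 libraries. Both failed the low-count filter. Both groups were at or below the floor of 3 counts, so no fold change is given. Cx3cr1 lies at chr9:120048683-120068296 and Ackr3 at chr1:90203980-90215724.

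Ccrl2, an atypical receptor that does not signal but binds chemerin and presents it to the signalling receptor Cmklr1, was at 10.4, 17.6 and 16.2 CPM in Ctr 1, 2 and 3, and at 26.1, 30.5 and 18.96 CPM in αGlu 1, 2 and 3. Every αGlu library was above every Ctr library, although αGlu 3 exceeded Ctr 2 by little. αGlu 1 was above the Ctr range together with αGlu 2 and αGlu 3, whereas in CPM it was within that range for Cxcr4 and below it for Ccr1. The log2 fold change was 0.77 ± 0.26 (adjusted p = 0.169) and 0.74 ± 0.27 (adjusted p = 0.0745) without αGlu 1, which is below the fold limit of a call. DESeq2 gave an adjusted p of 0.0710. The gene lies at chr9:111054834-111057518, outside the cluster that holds Ccr2.

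Other chemokine and chemerin receptors were mostly silent. Of 17 listed, 15 did not pass the filter, and 7 had no read in any library. Of the 2 tested, 0 were called by edgeR with all libraries (0% of all genes). Cxcr3 alone had an unadjusted p under 0.05 by edgeR (24.7% of all genes) and no overlap between the groups (30.2% of all genes). DESeq2 called it (8.16% of the genes it tested). EdgeR without αGlu 1 called it too, at 2.04 (adjusted p = 0.0352), against 18.6% of all genes. Cxcr3, the receptor for interferon-induced CXC chemokines, had 7, 9 and 19 reads in Ctr and 31, 38 and 86 in αGlu, with no overlap and a log2 fold change of 1.96 ± 0.55 (adjusted p = 0.159). Cmklr1, the signalling chemerin receptor, was at 22.9, 43.5 and 19.998 CPM in Ctr, against 24.8, 61.5 and 30.8 CPM in αGlu, which overlapped (log2 fold change 0.44 ± 0.44, adjusted p = 0.537).

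Several ligands of the receptors were higher in αGlu. Of 18 listed ligands, 12 were tested. None was called by edgeR with all libraries, 7 were higher and 1 was lower at an unadjusted p under 0.05 (24.7% of all genes), and 6 were higher and 1 was lower without overlap (30.2% of all genes). DESeq2 called 7 as higher and 1 as lower (8.16% of all genes), and without αGlu 1 edgeR called 7 as higher and 3 as lower (18.6% of all genes). Leaving out αGlu 1 turned Ccl2, Ccl5, Ccl7, Ccl8, Ccl12, Ccl24, Mif and Cx3cl1 into calls in the directions given below, and Ccl6 and Ccl9 into calls as lower. The median log2 fold change of the 12 was 2.14.

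Ligands of Ccr2 were higher in the αGlu libraries in which the receptor was lowest. Ccl2, the main attractant of monocytes, was at 5.82, 5.85 and 8.77 CPM in Ctr, against 7.40, 41.1 and 83.6 CPM in αGlu 1, 2 and 3 (fitted log2 difference 2.697, adjusted p = 0.160). Ccl7 was at 2.14, 5.52 and 5.80 CPM in Ctr, against 7.63, 109.5 and 213 CPM in αGlu (4.62 ± 1.19, adjusted p = 0.156). Ccl12 was at 0.363, 1.55 and 1.72 CPM in Ctr, against 2.06, 24.5 and 45.1 CPM in αGlu (4.30 ± 1.16, adjusted p = 0.157). In αGlu 1, Ccr2 was already 5.43-fold below the Ctr mean, while Ccl2 was within the Ctr range and Ccl7 and Ccl12 were just above it.

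**Figure D5:**
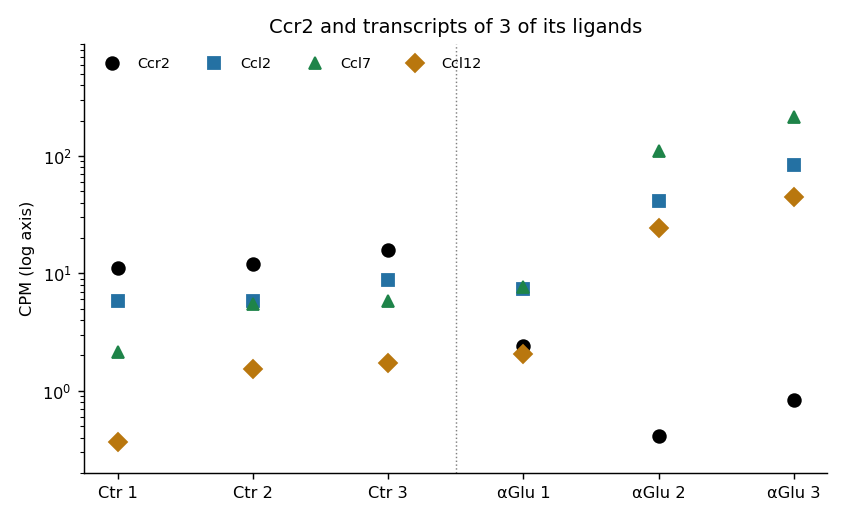
CPM on a log axis of Ccr2 and of the transcripts of its ligands Ccl2, Ccl7 and Ccl12 in each library, with Ctr on the left of the dotted line and αGlu on the right. Ccr2 is lower in every αGlu library than in any Ctr library, and each ligand is highest in αGlu 2 and αGlu 3; CPM does not account for length, so levels are to be read within a gene.

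Ccl5, a ligand of Ccr1 and Ccr3, was at 3.59, 7.86 and 13.5 CPM in Ctr, against 274, 1090.3 and 1031 CPM in αGlu 1, 2 and 3. All 3 αGlu libraries were therefore far above Ctr, with a log2 fold change of 6.59 ± 0.83 (adjusted p = 0.149). Ccl8, another chemoattractant of the monocyte chemotactic protein group, had a log2 fold change of 6.12 ± 1.22 (adjusted p = 0.149). Ccl6, an abundant Ccr1 ligand of mouse Mφs, was at 509, 492 and 519.9 CPM in Ctr, against 578, 59.6 and 60.3 CPM in αGlu 1, 2 and 3. αGlu 1 was thus above all controls and the other αGlu libraries far below them, and the log2 fold change was -1.13 with all libraries (adjusted p = 0.452) and -3.08 without αGlu 1 (adjusted p = 1e-05). Ccl9, another Ccr1 ligand, had a log2 fold change of -0.66 (adjusted p = 0.257), and of -1.08 without αGlu 1 (adjusted p = 0.00449). For Ccl3 it was -0.21. Ccl24, a Ccr3 ligand, had 14, 6 and 13 reads in Ctr and 4, 288 and 442 reads in αGlu.

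For Cxcr4, the classical ligand Cxcl12 had at most 9 reads in a library. Mif, a cytokine that also binds Cxcr4, was at 54.2, 52.6 and 48.8 CPM in Ctr, against 63.7, 206 and 194 CPM in αGlu, with a log2 fold change of 1.58 ± 0.43 (adjusted p = 0.157). Cx3cl1, the ligand of Cx3cr1, had 34, 11 and 14 reads in Ctr and 4, 3 and 1 in αGlu (-2.96 ± 0.76, adjusted p = 0.156). Transcripts of the Ccr7 ligands Ccl19 and Ccl21a and of the chemerin gene Rarres2 had at most 3 reads in a library.

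Of 36 listed genes of receptor signalling, 34 were in the table under the symbol used and all 34 were tested, with 0 called and a median log2 fold change of -0.08. At an unadjusted p under 0.05, 4 were higher and 6 were lower, which is close to the 24.7% of all genes, and without overlap 5 were higher and 9 were lower, against 30.2% of all genes. DESeq2 called 2 as higher and 3 as lower (8.16% of all genes), and edgeR without αGlu 1 called 2 as higher and 7 as lower (18.6% of all genes). Rgs16, which speeds the shut-off of inhibitory G proteins, was at 2.41, 4.22 and 2.04 CPM in Ctr, against 1.03, 0.220 and 0.220 CPM in αGlu 1, 2 and 3. The fitted difference was -2.65 ± 0.69 on the log2 scale (adjusted p = 0.156), and -3.69 without αGlu 1 (adjusted p = 0.00186). The related Rgs18 was at 24.9, 20.1 and 28.5 CPM in Ctr, against 17.8, 5.86 and 7.67 CPM in αGlu 1, 2 and 3. The fitted difference on that scale was -1.24 ± 0.43 (adjusted p = 0.174), and -1.86 without αGlu 1 (adjusted p = 0.000745). Arrb2 and Dock2, described next, were also called without αGlu 1, at 1.37 and -1.40. Arrb2, which encodes a β-arrestin and ends receptor signalling, was at 105, 103 and 113 CPM in Ctr, against 114, 261 and 291 CPM in αGlu (1.06 ± 0.34, adjusted p = 0.163). Arrb1, the other β-arrestin gene, differed in the opposite direction. It was at 369, 349 and 307 CPM in Ctr, against 315, 155 and 168 CPM in αGlu 1, 2 and 3. The edgeR log2 fold change of Arrb1 was -0.68 (adjusted p = 0.211), and -1.08 without αGlu 1 (adjusted p = 0.000702). Of the exchange factors that activate Rac, Dock2 and Vav1 differed in opposite directions. Dock2 was at 764, 723 and 586 CPM in Ctr, against 564, 245 and 279.7 CPM in αGlu (-0.93 ± 0.34, adjusted p = 0.181). Vav1 was at 134.8, 139.6 and 146 CPM in Ctr, against 154, 283 and 267 CPM in αGlu (0.75 ± 0.23, adjusted p = 0.162). Nup85, a nuclear pore protein that also binds Ccr2, had a log2 fold change of -0.26 ± 0.10 (adjusted p = 0.181).

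The genes whose values followed each receptor most closely over the 6 libraries were found among 8410 genes, by the root mean square (RMS) difference of mean-centred log2 CPM. The genes compared share the same 6 libraries and the separate position of αGlu 1, and the likeness is a description. Nearest to Ccr2 were Fcrls (RMS difference 0.47), a Mφ Fc receptor-like gene, Irf4 (0.52), a transcription factor of the IL-4 response, and Myc (0.56). Fcrls was at 70.4, 50.8 and 59.1 CPM in Ctr, against 18.6, 1.29 and 4.51 CPM in αGlu. Irf4 was at 30.3, 26.9 and 25.3 CPM in Ctr, against 8.95, 2.05 and 1.54 CPM in αGlu. Like Ccr2, both were lower in αGlu 1 than in any control, and lower still in αGlu 2 and αGlu 3.

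Cxcr4 was followed most closely by Stxbp3 (RMS difference 0.07), Sbno2 (0.07) and Pgs1 (0.08), and Ccr1 by Impdh1, Dnaaf3 and the AP-1 gene Fos (0.20 to 0.22). Ccr3 was followed by Il4i1 (0.21), which encodes an IL-4-induced amino acid oxidase, and then by Btg2 and Snn. Il4i1 was at 15.7, 16.6 and 15.8 CPM in Ctr, against 4.07, 16.2 and 24.5 CPM in αGlu, with the low αGlu 1 and high αGlu 3 of Ccr3. Nearest to Ccrl2 were Parp10 (0.15), the MHC class I gene H2-K1 (0.18) and Cdkn1a (0.19), and to Ccr7, which has few reads, Arrdc3, Dhrs11 and Apool (0.38 to 0.39). Among the members themselves, Ccr1 and Cxcr4 were the most alike (0.35), and Ccr2 was the farthest from each of the other 5 (2.16 to 2.45).

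Markers of other cells moved with these receptors in part. Of 8 monocyte markers, 3 exceeded 1 CPM in a group, none had 0 reads throughout, and their summed level was 3.94 to 4.60 CPM in Ctr and 4.76 to 17.6 CPM in αGlu. Ly6c2, which marks the classical monocytes that carry Ccr2, was at 0.136, 0.460 and 0.0464 CPM in Ctr, against 0.401, 7.15 and 5.83 CPM in αGlu. It was thus highest in the libraries in which Ccr2 was lowest. The list did not move as a whole, since Vcan was higher without overlap and Treml4 lower without overlap. Cd177 was also lower without overlap, but had only 13 reads in total over all libraries. Cd300e was at 0.681, 0.167 and 0.557 CPM in Ctr, against 0.115, 4.41 and 3.26 CPM in αGlu 1, 2 and 3. Treml4, a marker of non-classical monocytes, was at 0.502 to 0.772 CPM in Ctr, against 0.110 to 0.401 CPM in αGlu. Of 9 dendritic cell markers, 2 exceeded 1 CPM and Xcr1 was at 0, and the sum was 11.8 to 15.4 CPM in Ctr and 2.05 to 4.19 CPM in αGlu. Most of this sum was Ccl22, a chemokine that M2 Mφs also make, at 9.57 to 13.04 CPM in Ctr and 0.990 to 2.47 CPM in αGlu, and Flt3 had reads only in αGlu 1. The part of these cells in the Ccr2 values was not tested.

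Of 9 neutrophil markers, 3 exceeded 1 CPM and Ly6g and Retnlg were at 0, and the sum, nearly all Csf3r, was 107 to 159.6 CPM in Ctr and 186 to 609 CPM in αGlu. These markers did not move together, since Csf3r was higher without overlap and S100a9 and Ngp were lower without overlap. S100a9 was at a mean of 0.629 CPM in Ctr and 0.0592 CPM in αGlu, and Ngp at 0.985 and 0.134 CPM. Of 10 eosinophil, basophil and mast cell markers, 3 exceeded 1 CPM, and the sum was 14.04 to 18.003 CPM in Ctr and 2.13 to 15.1 CPM in αGlu. The marker with the highest CPM in Ctr was Siglecf, a receptor of eosinophils and some Mφs, which was at 8.72, 6.81 and 13.1 CPM in Ctr, against 3.67, 0.252 and 0.147 CPM in αGlu 1, 2 and 3. Siglecf and Kit were lower in αGlu without overlap, unlike Ccr3. The list did not move as a whole, since Prss34, the remaining marker above 1 CPM, overlapped between the groups. Prss34 was at 0.954 to 2.34 CPM in Ctr, against 5.45 CPM in αGlu 1, while αGlu 2 was within and αGlu 3 below the Ctr range. Some markers at lower levels were also highest in αGlu 1. The eosinophil peroxidase gene Epx was at most 0.287 CPM. None of 8 lymphocyte markers exceeded 1 CPM, with sums of 0.172 to 0.472 CPM over all libraries and Trac at 0. Of 8 stromal and endothelial markers, 2 exceeded 1 CPM, with sums of 4.89 to 11.3 CPM in Ctr and 5.104 to 26.9 CPM in αGlu, where Pecam1 made up most of the sum in αGlu 2 and αGlu 3. The part of these cells in the receptor values was not tested.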

How the data were processed

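Poly(A) mRNA of 3 Ctr and 3 αGlu libraries was sequenced after stranded library preparation. The authors deposited whole-number exon read counts, RPKM and TPM values per gene, made with the QIAGEN RNA-seq Analysis Portal (version 5.1). Per the labels the build was GRCm38, and the aligner, strand setting and handling of multi-mapping reads are not given in the sources used here. The authors' CPM columns and 1 blank row were not used.

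Genes were filtered with filterByExpr (minimum count 10, minimum total count 15), scaled by TMM factors and tested with the two-sided quasi-likelihood test of edgeR 4.0.16 in R 4.3.3, with group as the only term and Benjamini-Hochberg adjustment over 11933 genes. A call required an adjusted p under 0.1 together with a log2 fold change beyond 1 in either direction. Standard errors were derived from the F statistic. CPM values are counts over TMM-adjusted library sizes, and log2 CPM used a prior count of 2. The main edgeR fit was also run on simulated data, in which all libraries had the spread of the Ctr libraries. The separate position of αGlu 1 was not part of that simulation. The values of 2 genes are not reported here, and they were left out of the lists and of counts over them. Alternatives were DESeq2 1.42.0, limma-voom (limma 3.58.1), library size alone, upper-quartile or RLE factors, different filters and thresholds, a replicate block and each library left out. Deposited TPM and RPKM values served for levels between genes. Errors after ± are standard errors.

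The members, gene lists and rules were chosen with earlier results of these data known. Beside the members, the text names up to 6 genes a list (mean TPM of at least 10 or smallest p), the 3 genes nearest to each member in pattern (mean log2 CPM of at least 3, no gene models), and up to 3 expressed markers a list. Zero-level markers, Retnla, Mgl2, Arg1, Treml4, Cd177, S100a9, Ngp, Arrb1, Ccl2, Ccl3, Ccl6, Ccl9, Ccl24, Flt3, Epx, Lztfl1 and 2010315B03Rik were named after their values were seen. No 2 libraries agreed within sampling noise (chi-square per degree of freedom at least 19.8).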

Additional observations from a re-analysis of the deposited data

How the results depend on the processing

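Leaving out αGlu 1 changed most. Without it edgeR called 3 members in place of 0, while the share called of all genes went from 0% to 18.6%. The count of members called ranged from 0 to 3 with each library left out in turn. Members without overlap ranged from 2 to 4, and called genes of the other lists from 0 to 20, both highest without αGlu 1. DESeq2 called 1 member and 14 genes of the lists, against 8.16% of the genes it tested. The replicate block called 1 gene of the lists, Ccl5, and 0 members. The remaining scalings, filters and thresholds called 0 of either. Of 277 alternative log2 fold changes, 248 kept their direction and side of the threshold, 26 passed it, and 3 were reversed, namely Ccr3 at -0.11 with the replicate block and at -0.48 without αGlu 3, and Cmklr1 at -0.046 without αGlu 2. With each library left out in turn, the log2 fold change ranged from -0.48 to 0.54 for Ccr3 and from -0.046 to 0.86 for Cmklr1. Ccr7 could not be fitted where CPM above 1 in 3 libraries was required or without αGlu 2. The number of separated neighbours in the order of levels ranged from 6 to 7. The cause of these changes was not tested.

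The sources do not say that same-numbered libraries belong together, and the replicate block is given only here. Deviations of same-numbered libraries correlated at 0.076, 0.065 and 0.154, each sample best with its own number, which is a hint from the data. The study used a paired t test for αGlu against Ctr in transfected Mφs, but names no pairing for the mRNA libraries. Depth limits Ccr7, Cx3cr1 and Ackr3, whose reads were too few for a difference to be detected.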
